A study of Mus musculus with 16 samples.

Results

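The ISG15 system and a set of interferon-induced antiviral effectors were followed in hippocampal microglia of aged and young mice. The 10 genes were chosen by name, for their place in the ISG15 pathway or as effectors, and all 10 were found by symbol among the 24015 rows of the deposited table. They are Isg15, its conjugating enzymes Uba7, Ube2l6 and Herc6, its protease Usp18, and the effectors Ifitm3, Bst2, Rsad2, Ifi27l2a and Xaf1. All 10 passed the filter on low values, which kept 11579 genes (at least 6 of the 12 samples at 10 normalized counts or more).

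The cells were taken from the hippocampus after magnetic removal of myelin and sorted by FACS for life, CD11b and low CD45, the gate for microglia. There were 6 aged samples, from mice 20 months old, and 6 young samples, from mice 3 months old, with no treatment, transgene or deletion named in either group. The strain was given as C57BL/6 for 10 samples, while the labels of aged 5 and aged 6 end in other digits. Of the 12 samples, 4 had 2 technical libraries each (aged 3, aged 6, young 2 and young 4) and counted once, and since the labels do not give a sample as a single mouse or a pool, p-values here measure only how far these samples spread. Aged 4 held more RNA of neutrophil markers than any other sample, and young 1 was the shallowest; the values of both stand beside the results.

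Type I interferon acts through its receptor on transcription factors that bind a short DNA element, the interferon-stimulated response element (ISRE), in front of target genes. Isg15 is a ubiquitin-like protein made from such a gene. Uba7 activates it, Ube2l6 carries it and Herc6, the main ligase in the mouse, helps attach it to other proteins, while Usp18 removes it and also dampens signalling at the interferon receptor. Usp18 is known as a brake on interferon signalling in microglia. Interferon raises such genes, and their levels in the young samples differed from gene to gene, as given below.

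Promoter windows from RefSeq (GRCm38.p6, the assembly of mm10; 250 bases before to 50 after the gene start) were matched by symbol for 8 of the 10 genes, all but Usp18 and Ifi27l2a. The stretches that hold an ISRE-like match are shown because these genes share interferon as their known inducer. The motif searched was GAAANNGAAA on both strands, where overlapping matches were allowed, and capitals mark the matched bases. It was found in 4 of the 8 windows, and in 3.44% of all 32851 windows.
Isg15: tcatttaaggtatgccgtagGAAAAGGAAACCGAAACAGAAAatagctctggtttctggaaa
Bst2: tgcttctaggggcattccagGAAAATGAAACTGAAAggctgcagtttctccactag
Rsad2: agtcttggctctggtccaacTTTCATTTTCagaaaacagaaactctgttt
Ifitm3: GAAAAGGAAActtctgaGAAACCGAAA
The Isg15 stretch (chr4:156200855-156200916, minus strand) held 3 overlapping matches, the first beginning at position -78 from the gene start. That of Bst2 (chr8:71537567-71537622, minus strand) held 2 overlapping matches from position -130. Rsad2 (chr12:26456543-26456592, minus strand) had 1 match, at position -120, on the strand opposite to the gene. In Ifitm3 (chr7:141010716-141010742, minus strand) both matches lay just past the RefSeq start, from position 2, and only those bases are shown. These letters were not in the windows of Uba7, Ube2l6, Herc6 and Xaf1. A shorter element, the gamma-activated sequence TTCNNNGAA, was in the windows of Bst2 and Ifitm3 and in 8.3% of all windows. A match is a description of the letters and not of binding.

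All 10 genes had a log2 fold change above 0 at 20 months, as did 50.5% of tested genes, and 5 of them rose past the test, namely Ifi27l2a, Ifitm3, Usp18, Isg15 and Ube2l6, while 0 fell. Of all tested genes 1.27% were called higher (limma on log2 of the normalized count plus 1, Benjamini-Hochberg adjusted p under 0.05 over all tested genes) and 0.458% lower, 1.73% in either direction. Log2 fold changes of the 10 ran between 0.18 for Uba7 and 1.53 for Ifi27l2a, with a median of 0.65, beside a median of 0.0016 over all tested genes. In 4 of the 10 (Isg15, Ube2l6, Xaf1 and Ifi27l2a) every aged sample lay above every young sample, which held for 1.16% of tested genes. The type I interferon response was already known to be higher in these aged samples, so the direction is not independent evidence. In the 8 samples with 1 library each, limma called 1 of the 10 genes (Ifi27l2a) and 0.579% of tested genes higher, edgeR 2 of the 10 (with Ifitm3) and 0.656%, and DESeq2 4 of the 10 (with Usp18 and Rsad2) and 1.59%. In bulk samples, more cells with a transcript and more transcript per cell cannot be told apart.

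**Figure D1:**
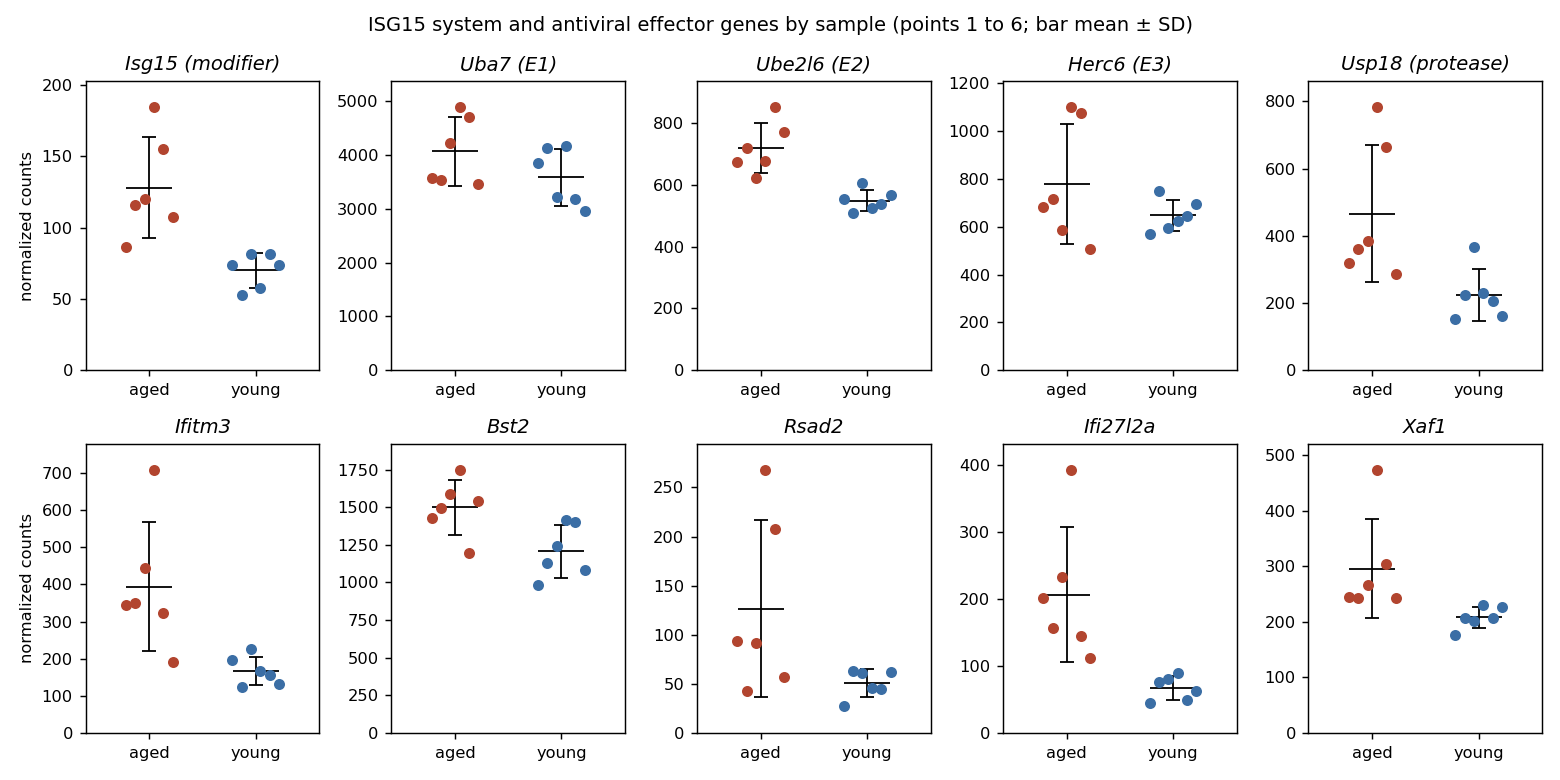
Normalized counts (vertical axes, each from 0) of the 10 genes in 6 aged samples (red) and 6 young samples (blue), ordered 1 to 6 within an age, with the mean and SD as black bars. Isg15, Ube2l6, Xaf1 and Ifi27l2a do not overlap between the ages, and aged 4 is the highest aged point in 9 of the 10 panels.

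Isg15, the modifier itself, had a lowest, median and highest value of 86.5, 118 and 184 normalized counts in aged samples, against 52.7, 73.8 and 81.5 in young samples. Every aged sample was above every young one, with the highest in aged 4 and the lowest in aged 1. It rose 1.78-fold, with a log2 fold change of 0.84 ± 0.20 (SE; limma adjusted p = 0.0437). Isg15 lies on chromosome 4 at 156199424 to 156200818 (mm10, minus strand), and its transcript of 756 bases has 2 exons. The shallowest library, young 1, held 30 Isg15 reads, and the deepest count among samples with 1 library was 168, in aged 4. Leaving out any of the 10 samples other than aged 1 and aged 6 ended the call (limma adjusted p up to 0.108), with log2 fold changes between 0.72 and 0.94.

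Uba7, the activating enzyme (E1), stood at 3472, 3900 and 4888 normalized counts (lowest, median, highest) in aged samples, against 2968, 3537 and 4171 in young samples. The groups overlapped over most of their range, and 3 aged samples exceeded the highest young one. Its log2 fold change of 0.18 did not pass (limma adjusted p = 0.647), with a 95% confidence interval between -0.051 and 0.41 on that scale. On chromosome 9 at 107975505 to 107984060 (plus strand), it shares 3.5% of its exon bases with another gene on the same strand.

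Ube2l6, the carrier enzyme (E2), had values of 621, 698 and 851 normalized counts in aged samples, against 508, 546 and 604.5 in young samples. No aged sample overlapped a young one, and here aged 5, not aged 4, was highest. The gene lies on chromosome 2 at 84798828 to 84810335 (plus strand). It rose 1.30-fold, a smaller fold than that of Isg15 but with less spread, as the log2 SE was 0.094 (limma adjusted p = 0.0459). This call too ended when any of the 10 samples other than aged 3 and young 3 was left out (limma adjusted p up to 0.107), with log2 fold changes of 0.33 to 0.42.

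Herc6, the ligase (E3), ranged over 508, 699.7 and 1099.7 normalized counts in aged samples, against 569.7, 636 and 750.4 in young samples. Only aged 4 and aged 5 were above the highest young sample, and aged 3 and aged 6 stood at 0.91 and 0.78 times the young mean. It did not pass (log2 fold change 0.21, 95% confidence interval -0.14 to 0.56, limma adjusted p = 0.765). With aged 4 and aged 5 both left out, a choice made after seeing the data, its log2 fold change was -0.060. Exons of another annotated gene on the same strand cover 13.7% of its annotated exon bases, so some of its reads cannot be assigned with certainty.

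Usp18, the protease and receptor-level brake, stood at 287, 372 and 782.5 normalized counts in aged samples, against 152, 214 and 368 in young samples. All 6 aged samples were above the young median, but young 3 stood above 3 of them. The gene lies on chromosome 6 at 121245906 to 121270917 (plus strand), and 4.4% of its exon bases overlap an opposite-strand gene, whose reads these unstranded libraries cannot tell apart. It rose 2.03-fold, with a log2 fold change of 1.02 ± 0.25 (SE; limma adjusted p = 0.0459). Leaving out any of the 9 samples other than aged 1, aged 6 and young 3 ended the call, with limma adjusted p up to 0.117 and log2 fold changes of 0.85 to 1.17. Without young 3 the limma adjusted p was 0.0149. In the 8 samples with 1 library, DESeq2 on recovered reads called it (adjusted p = 0.00556), while edgeR did not (adjusted p = 0.141).

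Levels were compared between genes per kilobase of the principal transcript, as normalized counts divided by transcript length. Levels between genes depend on the length used. All annotated exons together span 6692 bases for Uba7 against 3195 in its principal transcript, 9292 against 4767 for Herc6 and 2790 against 1771 for Usp18. The order of Isg15 against Herc6 and Usp18 therefore depends on which length is used. For Isg15 both lengths are 756 bases. Per kb of principal transcript the modifier was among the lower genes of its own pathway. Isg15 averaged 169 ± 46.9 normalized counts per kb in aged samples and 92.8 ± 16.2 in young samples (SD, n = 6 each), whereas Uba7 averaged 1273 ± 199 in aged and 1122 ± 165 in young samples. Ube2l6 stood at 461 ± 52.2 per kb in aged and 352 ± 22 in young samples. The ratio of the E1 to the modifier per kb was 7.75 ± 1.2 in aged samples and 12.7 ± 4.20 in young samples, and in 5 of the 6 aged samples it lay below the lowest young value. For Herc6 over Isg15 it was 0.968 ± 0.191 in aged and 1.52 ± 0.419 in young samples, again with 5 aged samples below the lowest young value. The ratio of Usp18 to Isg15 was 1.51 ± 0.278 in aged samples and 1.39 ± 0.474 in young samples, which overlap throughout. These ratios share the Isg15 values and are given as a description, without a test.

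**Figure D2:**
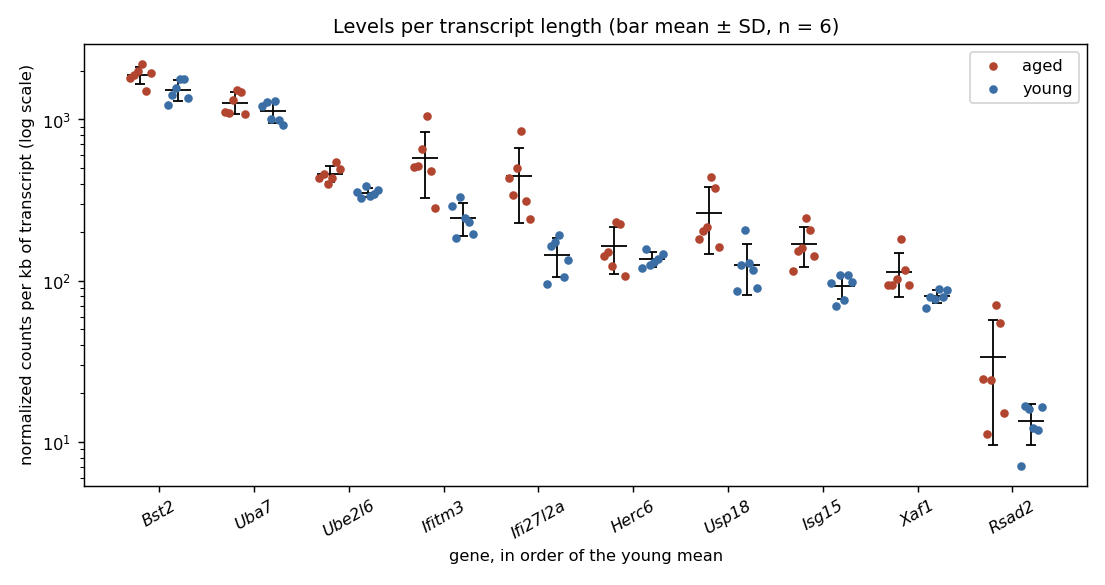
Normalized counts per kb of transcript (vertical log axis) of each gene in aged (red) and young (blue) samples, with genes in order of the young mean and black bars for mean ± SD over 6 samples. Bst2 and Uba7 are the highest in both ages, Rsad2 is the lowest, and Isg15 lies between Usp18 and Xaf1 in young samples.

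In young samples the order per kb was Bst2 (1526 ± 223), Uba7, Ube2l6, Ifitm3 (246 ± 56.3), Ifi27l2a (144.5 ± 39.2), Herc6 (136 ± 14), Usp18 (126 ± 43.9), Isg15, Xaf1 (80.1 ± 7.36) and Rsad2 (13.4 ± 3.77). From Ifi27l2a to Xaf1, each gene differed from its neighbour in this order by less than the larger of the pair's SDs. In aged samples Bst2 (1893 ± 232) and Uba7 still led, followed by Ifitm3 (581 ± 257), Ube2l6, Ifi27l2a (445 ± 217), Usp18 (263 ± 116), Isg15, Herc6 (163 ± 52.7), Xaf1 (114 ± 34.6) and Rsad2 (33.4 ± 23.9). There each gene between Ifitm3 and Xaf1 differed from the next by less than the larger SD of the pair. These SDs are between samples and do not compare 2 genes within the same sample. Within aged samples the ratio per kb ran from 1.14 to 1.83 for Usp18 over Isg15, and from 0.75 to 1.25 for Herc6 over Isg15.

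Among the effectors, Ifi27l2a, a small interferon-induced membrane protein, had the largest fold change of the 10. Its lowest, median and highest values were 111, 179 and 392 normalized counts in aged samples, against 44.2, 69.4 and 89.5 in young samples. The lowest aged sample, aged 6, was still above the highest young one, and aged 4 was highest. The gene lies on chromosome 12 at 103442167 to 103443680 (minus strand). It rose 2.89-fold, with a log2 fold change of 1.53 ± 0.27 (SE; limma adjusted p = 0.00423). It was called whichever of the 12 samples was left out (limma adjusted p up to 0.015) and in the 15 other alternatives. Without aged 4 the log2 fold change was 1.32. Its close relative Ifi27l2b reached at most 1.76 normalized counts in any sample, and young 1 held 18 Ifi27l2a reads.

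Ifitm3 sits in endosomal membranes and blocks the fusion of viruses there. Its values were 192, 347 and 708 normalized counts in aged samples, against 125, 162 and 225 in young samples. In all but 1 aged sample it was above the highest young sample, the exception being aged 6, which stood below young 1 and young 3. The gene lies on chromosome 7 at 141009586 to 141010770 (minus strand). It rose 2.22-fold, with a log2 fold change of 1.15 ± 0.24 (SE; limma adjusted p = 0.0158). It was called whichever of the 12 samples was left out (limma adjusted p up to 0.0457), but not without the mean-variance trend (0.054) and with limma on the 8 samples with 1 library (0.05, just above the threshold). Ifitm2, a near relative with which reads could be shared, averaged 32.8 ± 11.3 in aged and 15.5 ± 4.0 in young samples (SD, n = 6 each), and did not pass (limma adjusted p = 0.167).

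Rsad2, or viperin, makes a chain-terminating nucleotide from CTP. Its values spread the most of the 10 among aged samples, at 42.2, 92.3 and 268 normalized counts, against 27.0, 53.4 and 63.4 in young samples. Aged 4 and aged 5 were at 5.28 and 4.09 times the young mean, whereas aged 2 was at 0.83 times and aged 6 at 1.12 times. Its log2 fold change of 1.05 ± 0.38 (SE) was close to that of Usp18 but did not pass (limma adjusted p = 0.261). In 8 samples with 1 library it was called by DESeq2 (adjusted p = 0.0261) and not by edgeR (0.22). Counting error is largest here, as young 1 held 11 Rsad2 reads.

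Bst2, or tetherin, holds budding enveloped viruses at the cell surface and was the most abundant of the 10 per kb in both ages. It stood at 1195, 1517 and 1747 normalized counts in aged samples, against 979.8, 1184 and 1414 in young samples. In 5 aged samples it exceeded the highest young value, while aged 5, high for Rsad2 and Usp18, was at 0.99 times the young mean. Bst2 did not pass (log2 fold change 0.31, 95% confidence interval 0.088 to 0.54, limma adjusted p = 0.219).

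Xaf1, an interferon-induced antagonist of the apoptosis inhibitor XIAP, had 243, 256 and 473 normalized counts in aged samples, against 177, 207 and 229 in young samples. The ages did not overlap, but 5 of the 6 aged samples lay between 1.17 and 1.46 times the young mean, and aged 4 stood at 2.28 times. It did not pass (log2 fold change 0.47 ± 0.16 SE, limma adjusted p = 0.214), and without aged 4 its log2 fold change was 0.32. Xiap itself averaged 319 ± 43.6 in aged and 378 ± 110 in young samples (SD, n = 6 each; limma adjusted p = 0.8).

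The aged samples were unlike one another. Aged 4 was the highest aged sample in 9 of the 10 genes and above the highest young sample in all 10, with a median of 2.45 times the young mean. Aged 6 was the lowest aged sample in 5 of the 10, with a median of 1.22 times, and exceeded the highest young sample in 5 genes. Rsad2, Usp18, Herc6, Isg15, Uba7 and Xaf1 were highest in aged 4 and aged 5. Ifitm3, Ifi27l2a and Bst2 were highest in aged 4 and aged 3, and Ube2l6 in aged 5 and aged 6. On the log2 scale 9 of the 10 genes, all but Bst2, had a larger SD among aged than among young samples, as did 60.3% of tested genes. The median ratio of these SDs, aged over young, was 1.68 for the 10 genes and 1.13 for all tested genes. With aged 4 and aged 5 left out, Ifitm3 and Ifi27l2a were still called (limma adjusted p = 0.046 and 0.012), and Isg15, Usp18 and Ube2l6 were not (0.2, 0.18 and 0.13).

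**Figure D3:**
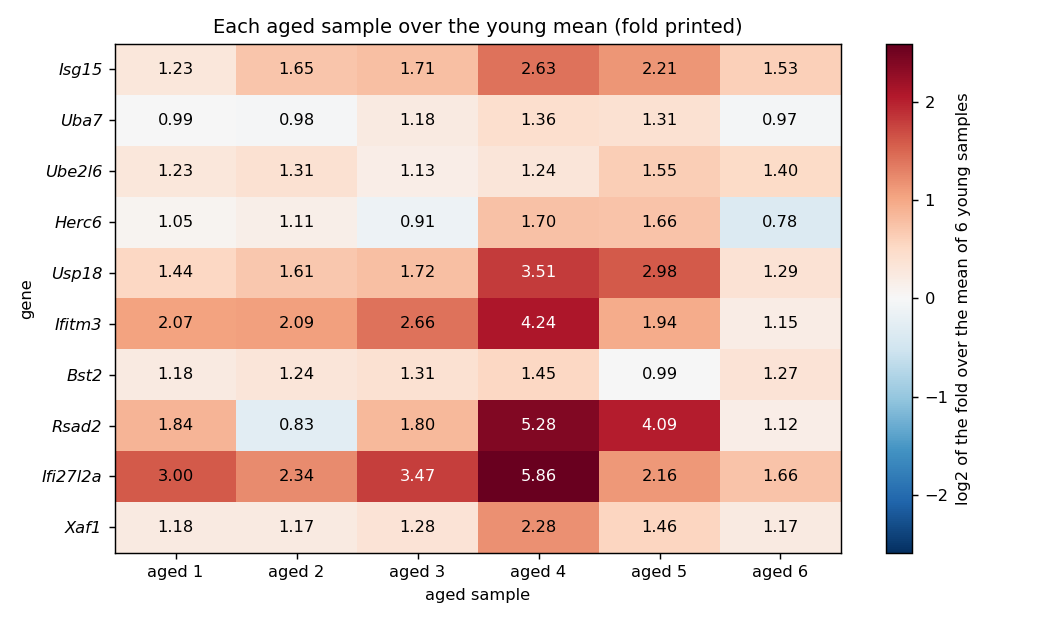
Fold of each aged sample (columns) over the mean of the 6 young samples for each gene (rows), with the fold printed and its log2 as colour. Aged 4 holds the highest fold in every row but that of Ube2l6, up to 5.86 for Ifi27l2a, and the lowest fold shown is 0.78, for Herc6 in aged 6.

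Markers of other cells were summed as CPM, the deposited normalized counts scaled to the total of their sample. The sort's target was present. The 12 microglia markers summed to 70880 to 77710 CPM in aged and 80400 to 86370 CPM in young samples, without overlap. Of the 12, 1 (Fcrls) was called lower and 2 had a log2 fold change above 0, where 50.5% of all tested genes were above 0. The 8 neutrophil markers, none high enough to be tested, summed to 11.7 CPM in aged 4 against 0.342 to 1.58 CPM in the other aged samples and 0.465 to 2.03 CPM in young samples. That is the sample highest in most of the 10 genes. The 7 monocyte markers, of which 4 were tested and 0 called, summed to 4.96 to 6.24 CPM in aged and 2.37 to 4.99 CPM in young samples. Of 7 markers of plasmacytoid dendritic cells, which express Bst2, Ly6d and Klk1 were listed at 0 in every sample. The list summed to 6.05 to 14.8 CPM in aged and 6.42 to 13.05 CPM in young samples, most of it Cox6a2 and Pacsin1. These 2 went opposite ways and were not called (limma adjusted p = 0.0779 and 0.233). Cox6a2 averaged 123 ± 65.4 normalized counts in aged and 38.8 ± 13.6 in young samples (SD, n = 6 each). Pacsin1 averaged 145 ± 44.9 in aged and 224 ± 57.6 in young samples. Endothelial markers, relevant to Ifitm3, summed to 49.4 to 81.2 CPM in aged and 55.97 to 74.1 CPM in young samples. Most of that sum was Pecam1, with a mean of 1394 normalized counts in aged and 1512 in young samples. Cldn5, Ly6c1 and Slco1a4 had a median of 0 over the 12 samples. The 6 conventional dendritic cell markers, of which 0 of 2 tested were called, were also highest in aged 4, at 9.615 CPM, against 5.49 to 7.771 CPM in the other aged samples and 5.36 to 8.035 CPM in young samples. The 6 choroid plexus markers (0 of 4 tested called) summed to a median of 73.7 CPM in aged samples (16.1 to 130.7) and 21.15 CPM in young samples (9.83 to 48.65), with aged 4 at 18.8 CPM. The 7 astrocyte markers summed to 214 to 282 CPM in aged samples, highest in aged 5 and aged 4, and to 207.5 to 259 CPM in young samples. Slc1a3 made up most of it, with a mean of 6351 normalized counts in aged and 6091 in young samples (limma adjusted p = 0.894). All 4 tested had a log2 fold change above 0, and 1, Aldh1l1, was called. It stood at 57.2 ± 26.5 normalized counts in aged against 19.4 ± 8.37 in young samples (SD, n = 6 each; limma adjusted p = 0.0411). Aqp4, too low to be tested, averaged 2.32 in aged and 5.65 in young samples. The sum of B cell markers was lower in aged samples without overlap, at 27.5 to 34.9 CPM in aged and 36.2 to 45.8 CPM in young samples. It was mostly Cd79b, with a mean of 864 normalized counts in aged and 1108 in young samples (limma adjusted p = 0.0379). The 7 markers of border macrophages summed to 6.97 to 27.7 CPM in aged samples, highest in aged 2, and to 8.36 to 14.6 CPM in young samples. The part of RNA from these other cells in the results was not tested. Without aged 4, Ifi27l2a and Ifitm3 were still called (limma adjusted p = 0.00693 and 0.025), whereas Isg15 (0.108), Usp18 (0.103) and Ube2l6 (0.0718) were not.

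Depth did not set the ages apart. The 8 samples with 1 library held 24.2 to 31.6 M reads in aged and 11.4 to 47.3 M in young samples, and those with 2 libraries an estimated 52.1 to 58.2 M in aged and 53.9 to 56.7 M in young samples. Young 1, the shallowest, was the lowest young sample in 6 of the 10 genes. Without it Usp18 (limma adjusted p = 0.12), Isg15 (0.066) and Ube2l6 (0.078) were not called, and Ifitm3 (0.025) and Ifi27l2a (0.013) were.

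Genes around the ISG15 pathway were taken from 12 lists of 98 genes, of which 78 were tested. Calls were made for 3 of them, all higher, and the other 75 did not pass. Their median log2 fold change was 0.07, and 50 were above 0. The ubiquitin-like machinery outside the interferon-induced genes had 0 calls, which at a share of 1.73% called over all tested genes says little about lists of this size. In the E1 list 0 of 8 passed, with Uba3, the E1 of Nedd8, at 793 ± 60.9 normalized counts in aged and 947 ± 85.4 in young samples (SD, n = 6 each; limma adjusted p = 0.213). Likewise 0 of 7 E2 relatives passed, where Ube2d3 had the smallest p (limma adjusted p = 0.48), 0 of 4 other HERC ligases, where it was Herc3 (0.591), and 0 of 6 proteases that can also act on Isg15, where it was Usp5 (0.804). Trim25, a further ligase of Isg15, stood at 994 ± 164 in aged and 818 ± 138 in young samples and did not pass (limma adjusted p = 0.404).

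**Figure D4:**
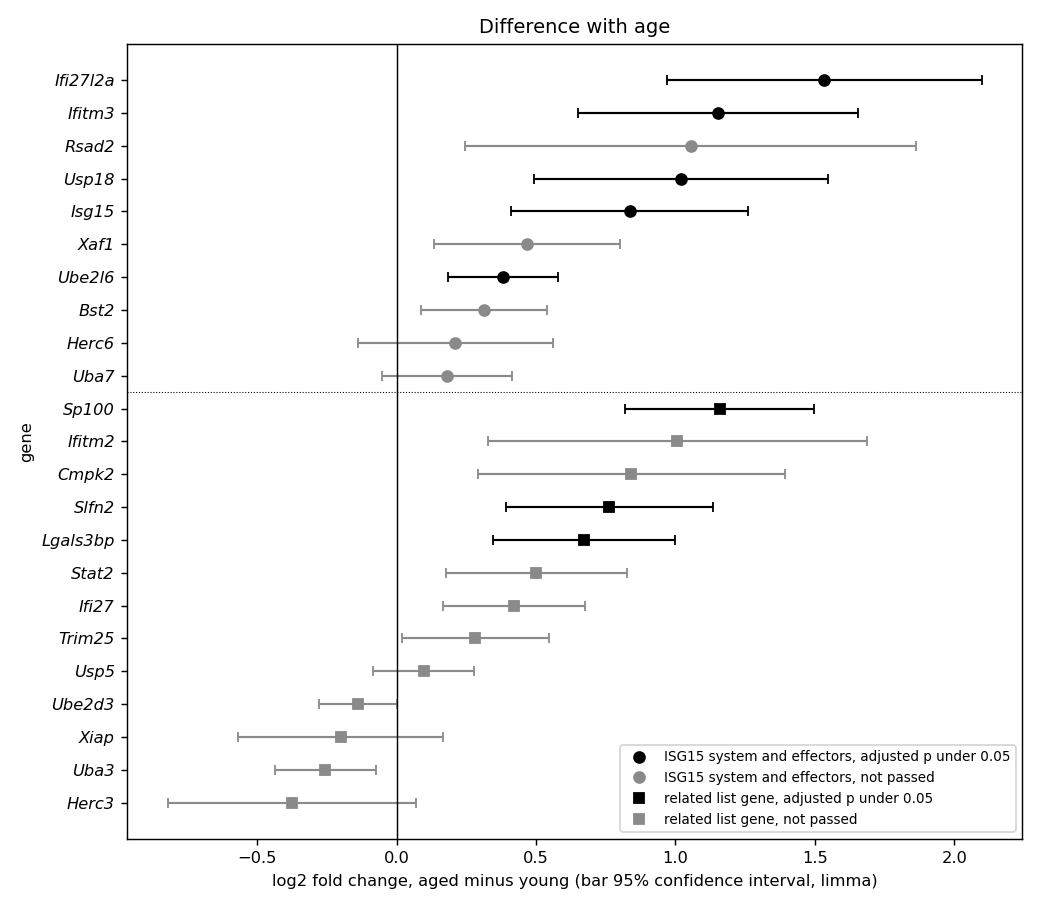
Log2 fold change, aged minus young, with 95% confidence intervals from limma for the 10 genes (circles, above the dotted line) and for the genes named from the related lists (squares), in black where the adjusted p was under 0.05. The circles all lie above 0, and the squares with calls are Sp100, Slfn2 and Lgals3bp.

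Upstream, 10 genes of the interferon receptor and its transcription factors were tested; 0 of these 10 passed with limma, 2 (Stat2 and Irf7) had an unadjusted p under 0.05, as did 10.8% of all tested genes, and 7 were above 0, as were 50.5% of all. Stat2, a transcription factor of the type I interferon response, had the smallest p of them, with a lowest, median and highest value of 1102, 1521 and 2396 normalized counts in aged samples, against 876.6, 1125 and 1277 in young samples. The groups overlapped, and its log2 fold change of 0.50 ± 0.15 (SE) did not pass (limma adjusted p = 0.141), although it did without aged 6 (0.0467) and with DESeq2 on the 8 samples with 1 library. No interferon gene was high enough to be tested, and 9 of 11 were listed at 0 in every sample. Ifnb1 ranged between 0 and 6.16 normalized counts in aged and between 0 and 4.62 in young samples.

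Among 22 other interferon-induced effectors 3 rose, 19 did not pass and 19 were above 0, where 1.27% of all tested genes were called higher and 50.5% were above 0. Sp100, of nuclear bodies, rose 2.23-fold to 578 ± 163 normalized counts in aged samples, against 251 ± 22.7 in young samples (SD, n = 6 each; limma adjusted p = 0.00044). Slfn2, of the Schlafen family, rose 1.70-fold and Lgals3bp, a secreted glycoprotein, 1.59-fold (limma adjusted p = 0.0331 and 0.0325). Slfn2 was not called in 6 fits that left out 1 sample (aged 5 or young 1, 2, 4, 5 or 6; limma adjusted p up to 0.082) nor Lgals3bp in 7 (aged 1, 3 or 5 or young 1, 4, 5 or 6; up to 0.0829). Cmpk2, a nucleotide kinase that neighbours Rsad2 and supplies its pathway, stood at 180.0 ± 78.1 in aged and 94.7 ± 25.4 in young samples and did not pass (limma adjusted p = 0.148). Ifi27, a relative of Ifi27l2a, stood at 1205 ± 196 in aged and 898 ± 135 in young samples (limma adjusted p = 0.104), and passed without aged 5 (0.0437).

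To see which other genes varied from sample to sample in the same way, each gene's log2 values were centred on the mean of their age and correlated with the mean of the 10 genes over the 12 samples. Among 10207 genes with a mean of at least 50 normalized counts, the 8 highest Pearson correlations were those of Oas1a (0.93), Rtp4 (0.90), Slfn5 (0.90), Lsg1 (0.90), Slfn2 (0.90), Ifit3 (0.89), Abcb8 (0.88) and Sp100 (0.88). Of these 8, 6 are known interferon-induced genes, while Lsg1, a GTPase of ribosome assembly, and Abcb8, a mitochondrial transporter, are not known as such. Lsg1 averaged 906 ± 63.0 normalized counts in aged and 908 ± 22.4 in young samples. Without aged 4 and aged 6, the samples farthest from the median, Oas1a kept 0.93 and the other 7 lay between 0.70 and 0.79. Each of the 10 genes was also correlated with the mean of the other 9. Xaf1 (0.88), Usp18 (0.85) and Rsad2 (0.79) were highest, and Bst2 (0.20) and Ube2l6 (-0.053) were lowest. Without aged 4 and aged 6, Usp18 (0.83), Xaf1 (0.68) and Rsad2 (0.62) were still the highest, while Ifitm3 stood at -0.084, Ifi27l2a at 0.14, Bst2 at -0.062 and Ube2l6 at 0.42, the next after Rsad2. The genes were picked for their correlation, and the samples share libraries and depth across genes, so these values are descriptions with no test.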

How the data were processed

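RNA was measured in sorted hippocampal microglia with SmartSeq v4 cDNA and Nextera XT libraries, per the labels' protocols, which do not mark the strand. Per the series' design text, the authors demultiplexed reads with bcl2fastq, trimmed them with fastx_trimmer, aligned them with STAR, counted them with samtools and used DESeq2. Per the submitters' processing notes the genome was mm10. Versions and the annotation were not given in the sources used here. The authors deposited normalized counts (a signal for each gene, at or above 0), with 1 column for each of 12 samples.

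Values above 0 were multiples of the worth of 1 read (tolerance 0.1 read; 100% of values) in the 8 samples with 1 library, so whole reads were recovered there. In the 4 others low values were sums of multiples of 2 steps, and depth was estimated from these. Genes with at least 6 of 12 samples at 10 normalized counts were tested with limma 3.58.1 in R 4.3.3 on log2(value + 1), with a mean-variance trend, two-sided, adjusted over all genes at 0.05. The pseudocount understates changes of low genes. The fit was tested on simulated data. edgeR 4.0.16 and DESeq2 1.42.0 were run on recovered reads of the 8 samples.

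The 10 genes and the lists were chosen with earlier results of these data known, and 1 gene is not reported here. Named genes were the 10, the called genes of each related list or else the 1 with the smallest p, and the 8 most alike in pattern. Positions and transcript lengths come from GENCODE M21. Alternatives were other pseudocounts, filters, scalings and limma settings, a fold minimum, a block and samples left out.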

Additional observations from a re-analysis of the deposited data

Results flagged for a closer look

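Samples were compared within an age for each of the 10 genes, 20 groups of 6 in all, and a sample was noted where its gap to the nearest other sample exceeded Dixon's 95% critical value as a share of the group's range. Chance gives about 1 in 20 such groups, and 2 were noted. Xaf1 in aged 4 stood at 473 normalized counts, with the next aged sample at 304, a gap of 0.737 of the range. Usp18 in young 3 stood at 368 normalized counts, with the next young sample at 229, a gap of 0.646 of the range.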

How the results depend on the processing

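Leaving out 1 sample gave 102 to 175 genes called higher, 27 to 60 called lower, 2 to 4 of the 10 genes called higher and 1 to 7 of the related list genes called higher. The 2 of the 10 called in every such fit were Ifitm3 and Ifi27l2a. No others of the 10 were called without aged 2, 4 or 5 or young 1, 2, 4, 5 or 6. Without aged 3 the only other was Ube2l6. Related genes called were 7 without aged 6, 2 without aged 3 or 5 or young 2, and 1 without young 1, 4, 5 or 6. Genes called lower were 35 without aged 2, young 1 or young 4, 32 without young 2, 27 without young 5 and 30 without young 6. On the 8 samples with 1 library, limma called 67 genes higher and 11 lower, with 1 of the 10 and 1 related gene, and edgeR called 76 higher and 15 lower, with 2 of the 10 and 1 related gene. There DESeq2 called 4 of the 10 and 7 related genes. Of the 10, 2 were called with no filter, 2 with quantile normalization, 3 without the trend, and 2 without aged 5 and aged 6, whose strain labels differ. With aged 4 and aged 5 left out, a choice made after seeing the data, 2 of the 10 and 2 related genes were called, and Herc6 changed sign to -0.060 (log2). Related genes called were 1 with no filter, 1 without the trend and 2 with robust empirical Bayes. A minimum of 1.5-fold left 30 genes called lower. With the sample number as a replicate block 30 genes were called lower, 3 of the 10 (Usp18, Ifitm3 and Ifi27l2a) and 1 related gene. Whether the numbers pair the samples was not settled. Same-numbered samples correlated between -0.12 and 0.11 in their deviations, and 2 of 6 aged samples correlated best with their own number. Low correlations of this kind cannot show that samples were not collected in pairs. No gene of the 10 or of the related lists was called lower in any of these fits. Why the calls differed between these fits was not tested. Depth limits Isg15, Rsad2 and Ifi27l2a most, with 11 to 30 reads each in young 1.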
